A study of Mus musculus with 9 samples.

Results

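The 10 genes described here encode thrombospondins (Thbs1, Thbs2, Thbs3 and Thbs4), tenascin-C (Tnc), periostin (Postn), SPARC (Sparc), osteopontin (Spp1), fibronectin (Fn1) and matrix Gla protein (Mgp). Their RNA was measured by sequencing in Dmdmdx mouse embryonic fibroblasts (MEFs), and they were chosen by name from 35675 genes with their differences between the groups already known. All 10 passed the filter on low counts, which left 15714 genes. The 9 libraries came from 3 groups of 3: MEFs with no treatment, MEFs with MyoD (the muscle transcription factor encoded by Myod1, overexpressed from an ectopic source) and MEFs with MyoD plus small molecules, abbreviated F/R/C with no expansion in the labels. Every group carried the Dmdmdx genotype, a premature stop codon in the dystrophin gene Dmd, so that no group with intact Dmd was analysed here. The source of all groups is labelled as embryonal tissue; the study asked about reprogramming fibroblasts into muscle progenitors. No label gives the vector or promoter that drove MyoD, the time in culture or the age of the embryos.

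Matricellular proteins are secreted into the extracellular matrix, where they act less as structural fibres than as regulators of adhesion, of proteases and of growth factors held in the matrix. They signal through integrins, CD36, CD47 and related receptors, and several of them bind or activate latent TGF-beta. In muscle they are known from regeneration, fibrosis and tendon attachment, while fibronectin is a structural glycoprotein that fibroblasts assemble into fibrils and to which several of the others bind.

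Gene totals were 21066815 to 24175719 estimated counts a library. Levels are given as CPM, estimated counts per 1000000 after scaling the libraries to equal effective size, and per-length levels as TPM. Genes were called at an adjusted p under 0.05 (edgeR's quasi-likelihood test, Benjamini-Hochberg over 15714 genes). Whether libraries of 1 group were separate cultures or embryos is unstated, and p-values therefore cover only the spread between libraries, which may be technical. Same-numbered libraries of MEF and MyoD deviated from their group means together, with correlations of 0.655, 0.632 and 0.729. What a replicate number stands for is unstated, and the main fit leaves it out. Summed over 14 skeletal muscle markers, MEF replicates 1, 2 and 3 reached 8.74, 5.59 and 672 CPM. The range was 1092 to 3518 CPM with MyoD and 40486 to 58606 CPM with MyoD and F/R/C, where all 14 rose against MEF. Among these, Myod1 stood at 2.60, 0.402 and 5.99 CPM in MEF. It stood at 7.20, 9.02 and 18.9 CPM with MyoD, a difference that was not called. With F/R/C it stood at 269, 281 and 330 CPM and was called higher against both other groups. Thus F/R/C and MyoD differed in Myod1 RNA as well as in small molecules. Whether these counts include RNA from the ectopic source is unknown, as the vector is unstated. The 12 fibroblast markers, none of them at 0 throughout a group, summed to 19563 to 80015 CPM in MEF, 8933 to 34708 CPM with MyoD and 5614 to 8621 CPM with F/R/C, and 3 of them (Col1a1, Col1a2 and S100a4) were called lower with F/R/C than in MEF. Most of that sum was Col1a1, Col1a2 and Col3a1. The other 9 markers summed to 2243 to 3915 CPM in MEF and 1365 to 2487 CPM with F/R/C, which overlap. Among those 9, the log2 fold change against MEF was -2.49 for S100a4, -1.76 for Lum, -0.98 for Twist1 and -0.93 for Pdgfra. It was -0.88 for Pdgfrb, -0.75 for Prrx1, -0.11 for Thy1, 0.15 for Dcn and 0.81 for Twist2. Of the 9 only S100a4 was called, and the median over all 12 markers was -0.95. Cartilage and bone markers summed to 124 to 301, 118 to 943 and 29.3 to 44.4 CPM in the same order, and macrophage markers to 6.80 to 22.8, 10.8 to 34.3 and 27.8 to 45.0 CPM, where 3 of 7 tested (Cd68, Itgam and Fcer1g) rose with F/R/C against MEF, with Cx3cr1 at 0 throughout MEF, Aif1 throughout MyoD, and Adgre1 and Tyrobp throughout F/R/C. Mitochondrial genes took 0.819% to 1.10% of counts in MEF, 1.15% to 1.22% with MyoD and 1.54% to 3.09% with F/R/C, without overlap. The part of these differences in the results below was not tested. In such bulk libraries, fewer cells of a type and less RNA per cell cannot be told apart.

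Together the 10 genes took 4.02%, 3.40% and 4.58% of all TPM in MEF replicates 1, 2 and 3. With MyoD they took 5.29%, 3.51% and 6.02%, and with F/R/C 0.478%, 0.442% and 0.231%. All 3 F/R/C libraries thus lay below every other library. Per length, Mgp was the most abundant of the 10 in each MEF and MyoD library, with 43.7% to 81.3% of their summed TPM. In the F/R/C libraries the most abundant was Spp1 in replicate 1 (29.7%), Mgp in replicate 2 (34.7%) and Sparc in replicate 3 (33.7%). Thbs4 was the lowest of the 10 by TPM in 7 of the 9 libraries, and Thbs3 in F/R/C replicates 2 and 3.

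**Figure D1:**
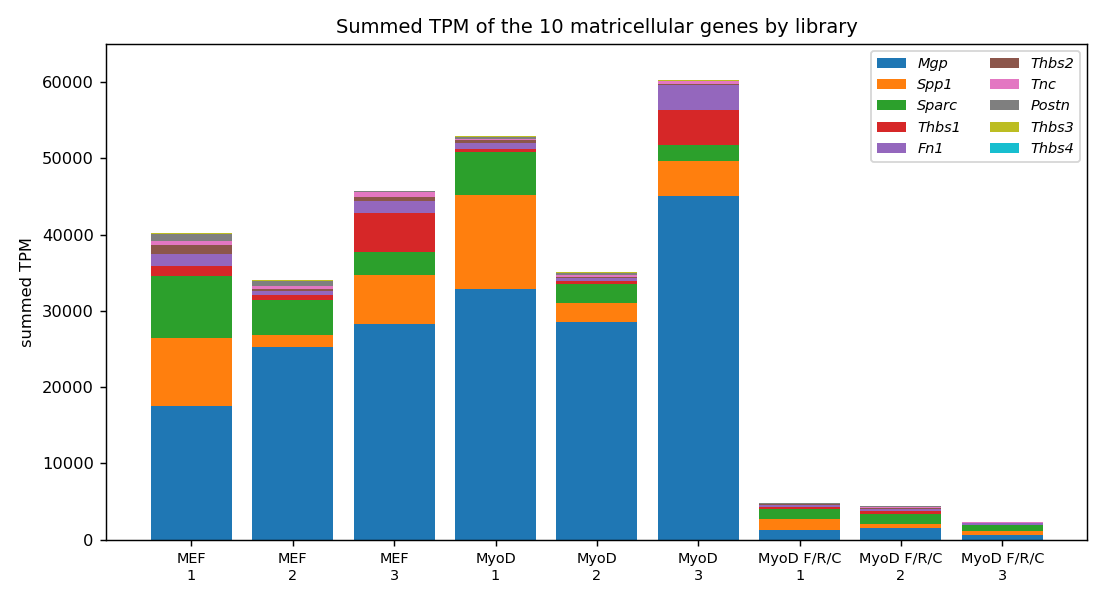
Summed TPM (vertical axis) of the 10 matricellular genes in each of the 9 libraries, stacked by gene. The MEF and MyoD libraries stand at 3.40% to 6.02% of all TPM, with Mgp the largest share in each, and the 3 F/R/C libraries at 0.231% to 0.478%.

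Against MEF, 7 of the 10 genes fell with F/R/C (Thbs2, Thbs3, Tnc, Sparc, Spp1, Fn1 and Mgp), beside 18.1% of all genes called lower and 37.6% called in either direction. Against MyoD, 4 fell with F/R/C (Thbs3, Spp1, Fn1 and Mgp), beside 16.1% of all genes called lower and 33.9% in either direction. Of all genes called against MyoD 52.5% were higher, or 42.4% with total counts as the only scaling, which moved the median of all genes by -0.19 on the log2 scale and changed the call of none of these 4. None of the 10 was called between MyoD and MEF, where 0% of all genes were called. These counts are a description, because the genes were chosen with the same comparisons in view. The median log2 fold change of the 10 genes was -2.51 against MEF and -1.96 against MyoD with F/R/C, and -0.48 for MyoD against MEF, beside medians of -0.04, -0.02 and -0.01 over all genes. Without regard to the test, all 3 F/R/C libraries lay below all 3 MEF libraries for 7 genes (Thbs1, Thbs2, Thbs3, Tnc, Sparc, Fn1 and Mgp), beside 26.0% of all genes, and below all 3 MyoD libraries for 5 (Thbs3, Sparc, Spp1, Fn1 and Mgp), beside 23.2%. Set against the library of the same replicate number, F/R/C was lower than MEF at all 3 numbers for 8 genes (all but Thbs4 and Postn), beside 33.5% of all genes. It was lower than MyoD at all 3 numbers for 6 genes (Thbs3, Tnc, Sparc, Spp1, Fn1 and Mgp), beside 30.8%, and higher for Thbs4, beside 32.6%. Both comparisons of F/R/C share the F/R/C libraries, so they are not independent of each other.

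**Figure D2:**
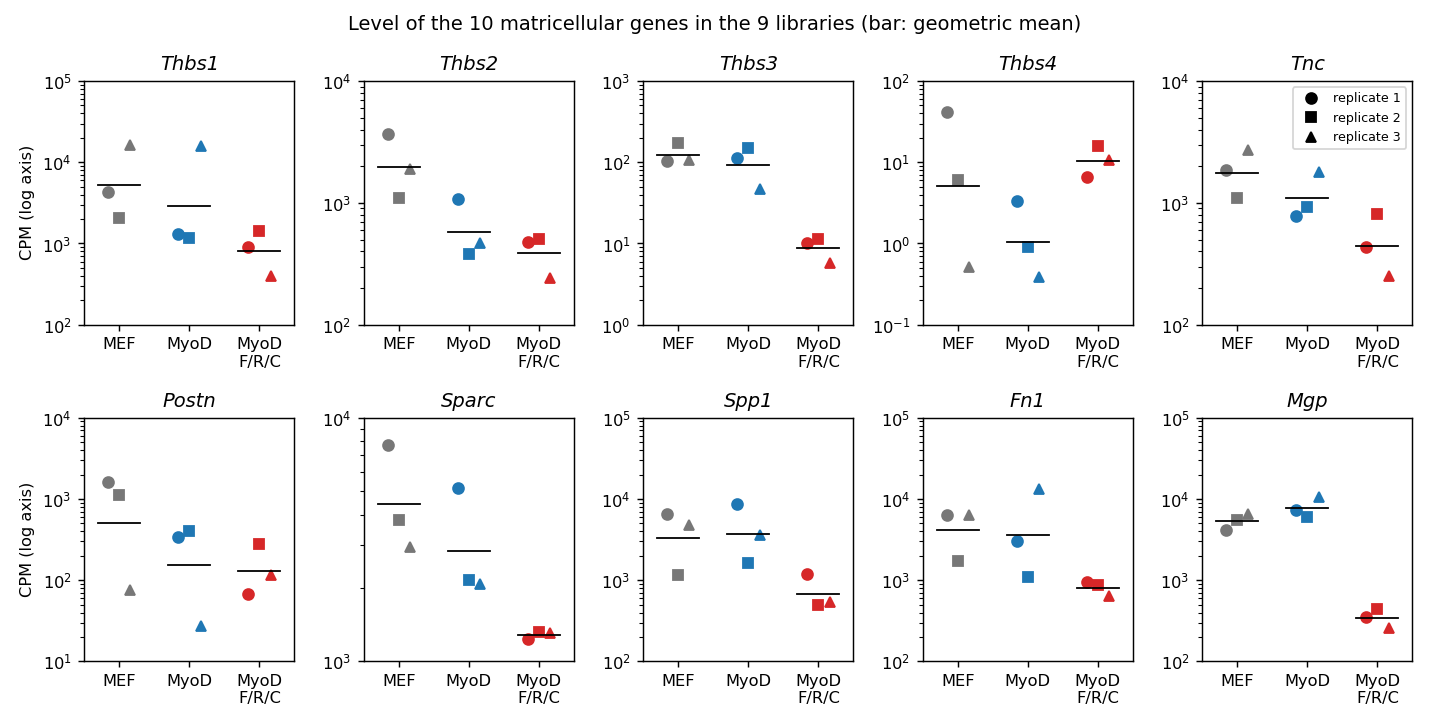
CPM (log axis) of the 10 genes by group, 1 point per library with the symbol giving the replicate number and a bar for the geometric mean. The 3 F/R/C points lie below all 6 others for Thbs3, Sparc, Fn1 and Mgp, while Thbs1, Thbs4 and Postn spread widely within MEF and MyoD.

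Thrombospondin-1 and thrombospondin-2 are the trimeric thrombospondins, which restrain angiogenesis and bind CD36 and CD47, and Thbs1 can also activate latent TGF-beta. Thbs1 (ENSMUSG00000040152, chromosome 2, 118111876 to 118127133, GRCm38) stood at 4278, 2063 and 16505 CPM in MEF replicates 1, 2 and 3, at 1307, 1161 and 15690 CPM with MyoD and at 902, 1432 and 394 CPM with F/R/C. Its 2 highest values were the third libraries of MEF and of MyoD, and the F/R/C libraries overlapped those of MyoD. The log2 fold change with F/R/C was -3.07 ± 1.20 (SE) against MEF and -2.73 ± 1.19 against MyoD, and neither was called. Without the third libraries of MEF and MyoD these became -1.75 and -0.44, and Thbs1 was then called against MEF. DESeq2 called it lower in both comparisons, and the fit of only the 2 groups against MEF.

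Thbs2 (ENSMUSG00000023885, chromosome 17, 14665500 to 14694235) stood at 3655, 1107 and 1910 CPM in MEF, at 1072, 382 and 471 CPM with MyoD and at 475, 504 and 241 CPM with F/R/C. Every MyoD and F/R/C library lay below every MEF library, and MyoD and F/R/C overlapped. It fell with F/R/C against MEF by 2.45 ± 0.57 on the log2 scale. Neither the difference of MyoD from MEF (-1.79 ± 0.56) nor that of F/R/C from MyoD (-0.66 ± 0.54) was called. Thbs2 was the only 1 of the 10 genes whose MyoD libraries all lay below the MEF libraries, a pattern that 3.11% of all genes showed.

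Thrombospondin-3 and thrombospondin-4 form pentamers and lack the domain by which thrombospondin-1 activates TGF-beta. Thbs4 is known from tendon and from stressed heart and muscle. Thbs3 (ENSMUSG00000028047, chromosome 3, 89215180 to 89226837) stood at 105, 171 and 106 CPM in MEF, at 113, 152 and 47.5 CPM with MyoD and at 10.3, 11.2 and 5.81 CPM with F/R/C. The F/R/C libraries lay below all others, and MEF and MyoD overlapped. It fell by 3.81 ± 0.48 on the log2 scale against MEF and by 3.52 ± 0.47 against MyoD, and by 8.18-fold to 18.2-fold in each pair of libraries with the same replicate number. Both calls held in all 15 alternative fits. Its exons share 318 of 4823 bases with those of Mtx1, a gene on the opposite strand that stood at 68.2 to 144 TPM in the 9 libraries, whereas Thbs3 stood at 3.34 to 6.68 TPM with F/R/C and at 37.8 to 133 TPM in the others. Whether the counting used strand is not given in the sources used here, so that reads in the shared bases may belong to either gene.

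Thbs4 (ENSMUSG00000021702, chromosome 13, 92751590 to 92794818) was the only 1 of the 10 genes whose F/R/C libraries all lay above the MyoD libraries, a pattern of 26.6% of all genes. Its levels were 41.9, 6.03 and 0.507 CPM in MEF, 3.31, 0.906 and 0.385 CPM with MyoD and 6.54, 16.0 and 10.7 CPM with F/R/C. The lowest of these rests on 8 counts in MyoD replicate 3 and the next on 11 counts in MEF replicate 3. The 7 tendon markers summed to 1078 to 1487 CPM in MEF, 648 to 932 CPM with MyoD and 578 to 1402 CPM with F/R/C. Of these, 4 (Mkx, Tnmd, Fmod and Col11a1) fell and 1 (Kera) rose with F/R/C against MEF, at a median log2 fold change of -1.57 over the 7, and their part in the levels of Thbs4 was not tested. MEF spanned 82.6-fold, its range held all 3 F/R/C libraries, and MyoD replicate 3 lay below it. The log2 fold change was 2.85 ± 1.32 for F/R/C against MyoD, -3.39 ± 1.35 for MyoD against MEF and -0.54 ± 1.21 for F/R/C against MEF, and none was called. For F/R/C against MyoD Thbs4 was called higher by DESeq2, with only the 2 groups compared and with the replicate block (3.92). The difference of F/R/C from MEF turned to 1.70 without MEF replicate 1 and to 1.08 with the replicate number as a block.

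The upstream windows of Thbs3 and Spp1, which fell against both other groups, and of Thbs4, the only member above MyoD with F/R/C, are shown because MyoD binds E-boxes, sites of the form CANNTG. Each window holds the 250 bases before a RefSeq start site on GRCm38.p6, and capitals mark every CANNTG match; the motif reads the same on both strands.

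Thbs3, chr3:89214930-89215179, plus strand: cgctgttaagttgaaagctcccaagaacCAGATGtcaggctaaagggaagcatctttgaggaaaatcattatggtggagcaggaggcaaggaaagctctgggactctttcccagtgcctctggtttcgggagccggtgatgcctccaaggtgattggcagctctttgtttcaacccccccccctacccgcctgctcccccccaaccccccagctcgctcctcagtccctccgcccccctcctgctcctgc
Spp1, chr5:104434861-104435110, plus strand: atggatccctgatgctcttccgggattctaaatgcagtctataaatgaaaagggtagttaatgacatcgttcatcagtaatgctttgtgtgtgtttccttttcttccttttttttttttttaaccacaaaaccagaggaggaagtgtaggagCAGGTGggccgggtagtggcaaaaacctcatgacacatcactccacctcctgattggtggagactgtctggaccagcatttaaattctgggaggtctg
Thbs4, chr13:92794819-92795068, minus strand: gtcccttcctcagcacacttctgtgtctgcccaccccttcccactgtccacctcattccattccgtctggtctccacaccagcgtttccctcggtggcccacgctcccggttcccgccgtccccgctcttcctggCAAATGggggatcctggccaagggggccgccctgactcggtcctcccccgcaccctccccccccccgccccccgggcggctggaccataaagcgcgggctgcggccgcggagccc

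Each of these windows held 1 match, at -222, -98 and -115 respectively, where -1 is the base before the start site. A second RefSeq start of Spp1, not printed, had matches at -218 and -207. CANNTG occurred in 66.2% of all 32851 windows of this length, so that a match is common. The form CAGCTG, which 13.0% of windows held, was searched in the windows of the 7 genes of the 10 with an entry and occurred in that of Sparc, overlapping its CANNTG match at -60. Neither window of Postn held a CANNTG match, and TGANTCA, the AP-1 form held by 6.75% of windows, was found in none of the 7. A match or its lack is a description of these letters only.

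Tenascin-C, a large hexameric protein of embryonic and wounded tissue, weakens the adhesion of cells to fibronectin. Tnc (ENSMUSG00000028364, chromosome 4, 63959785 to 64047015) stood at 1857, 1103 and 2702 CPM in MEF, at 781, 921 and 1804 CPM with MyoD and at 438, 807 and 249 CPM with F/R/C. The F/R/C libraries lay below every MEF library and overlapped those of MyoD. It fell by 1.92 ± 0.54 on the log2 scale against MEF, and the log2 fold change was -1.23 ± 0.53 against MyoD and -0.69 ± 0.52 for MyoD against MEF, neither called.

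Periostin, a fasciclin-domain protein that links collagen, fibronectin and tenascin-C in repairing tissue, varied widely within each group. Postn (ENSMUSG00000027750, chromosome 3, 54361109 to 54391037) stood at 1627, 1103 and 74.9 CPM in MEF, at 338, 405 and 27.4 CPM with MyoD and at 68.3, 278 and 117 CPM with F/R/C. The third library was the lowest of its group in MEF and in MyoD, opposite to Thbs1, and all groups overlapped. The log2 fold change with F/R/C was -2.60 ± 1.18 against MEF and -0.73 ± 1.12 against MyoD, and that of MyoD against MEF was -1.86 ± 1.15; none was called. Without the third libraries of MEF and MyoD the difference from MEF was -3.10 and Postn was called, while with the replicate number as a block it was -1.64 and was not. The block turned the difference from MyoD to 0.19. DESeq2 called Postn lower against MEF.

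SPARC and osteopontin bind collagen and mineral, and osteopontin also engages alpha-v integrins and CD44. Sparc (ENSMUSG00000018593, chromosome 11, 55394500 to 55423183) stood at 7717, 3812 and 2953 CPM in MEF, at 5139, 2150 and 2070 CPM with MyoD and at 1235, 1323 and 1311 CPM with F/R/C. The F/R/C libraries lay within 1.07-fold of each other and below all 6 others. It fell by 1.90 ± 0.49 on the log2 scale against MEF, and its log2 fold change of -1.27 ± 0.48 against MyoD was not called, though the libraries did not overlap. Against MyoD, Sparc was called lower by DESeq2, with total counts as the only scaling, with only the 2 groups compared and with the replicate block. It was also called there without MyoD replicate 3 and without the third libraries of MEF and MyoD, and not in the other alternatives.

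Spp1 (ENSMUSG00000029304, chromosome 5, 104435118 to 104441050) stood at 6458, 1148 and 4791 CPM in MEF, at 8722, 1642 and 3642 CPM with MyoD and at 1207, 490 and 534 CPM with F/R/C. Replicate 2 was the lowest in each group. The F/R/C libraries lay below all MyoD libraries, but F/R/C replicate 1 lay above MEF replicate 2. It fell by 2.47 ± 0.79 on the log2 scale against MEF and by 2.65 ± 0.80 against MyoD, the latter moving to -1.84 without MyoD replicate 1, where it was no longer called. The call against MyoD was also lost without F/R/C replicate 2 or 3. That against MEF was lost without MEF replicate 1 or 3, without F/R/C replicate 2 or 3 and without the third libraries of MEF and MyoD.

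Matrix Gla protein is a small vitamin K-dependent inhibitor of calcification. Mgp (ENSMUSG00000030218, chromosome 6, 136872435 to 136875823) stood at 4172, 5577 and 6598 CPM in MEF, at 7317, 5930 and 10501 CPM with MyoD and at 354, 447 and 257 CPM with F/R/C. The F/R/C libraries lay far below the rest, and each group spanned at most 1.77-fold. It fell by 3.95 ± 0.40 on the log2 scale against MEF and by 4.49 ± 0.41 against MyoD, and both calls held in all 15 alternative fits. Per length this was a fall from 17546 to 45041 TPM in the MEF and MyoD libraries to 681 to 1537 TPM. With MyoD it lay above MEF at each replicate number, by 1.06-fold to 1.75-fold, but its log2 fold change of 0.54 ± 0.36 was not called.

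Fibronectin (Fn1, ENSMUSG00000026193, chromosome 1, 71585520 to 71653200) stood at 6277, 1744 and 6307 CPM in MEF, at 3054, 1091 and 13437 CPM with MyoD and at 952, 882 and 638 CPM with F/R/C. The F/R/C libraries lay within 1.49-fold of each other and below all others, by a factor that depended on the library it was set against: MyoD spanned 12.3-fold, from replicate 2 to replicate 3. Fn1 fell by 2.54 ± 0.88 on the log2 scale against MEF and by 2.83 ± 0.89 against MyoD. Against MEF the log2 fold change was -2.12 with the replicate number as a block, where it was not called. The call against MEF was also lost with DESeq2 size factors in edgeR, without MEF replicate 1 or 3 and without any 1 F/R/C library. Against MyoD the log2 fold change was -1.34 without MyoD replicate 3 and was then not called. The call against MyoD was also lost with the block, without the third libraries of MEF and MyoD and without any 1 F/R/C library.

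**Figure D3:**
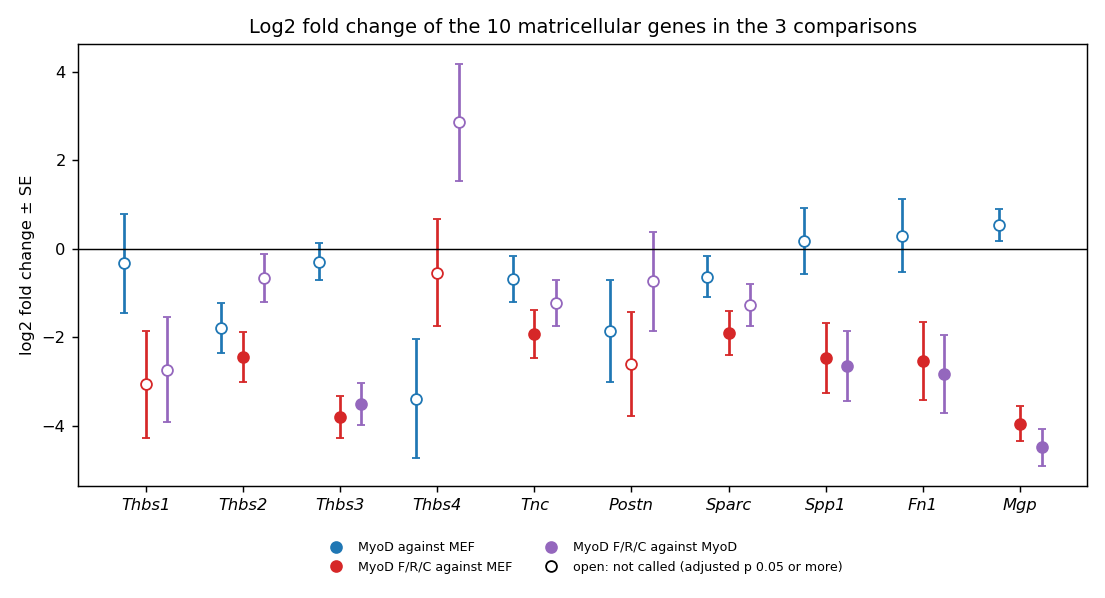
Log2 fold change ± SE of the 10 genes in the 3 comparisons, filled where the gene was called and open where it was not. The filled points are 7 against MEF and 4 against MyoD with F/R/C, all below 0, and every point of MyoD against MEF is open.

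Calls depended on single libraries for some genes and not for others. Leaving out each library of the groups compared in turn, Thbs2, Thbs3 and Mgp stayed called against MEF, and Thbs3 and Mgp against MyoD. Against MEF, 5 of the 10 genes were called without MEF replicate 1, 7 without MEF replicate 2, 5 without MEF replicate 3, and 4, 5 and 3 without F/R/C replicates 1, 2 and 3. The calls lost were those of Tnc, Sparc, Spp1 and Fn1 in various combinations, and Postn was gained without MEF replicate 3. Against MyoD, the numbers were 3, 4 and 4 without MyoD replicates 1, 2 and 3 and 3, 2 and 2 without F/R/C replicates 1, 2 and 3. There Spp1 and Fn1 were the genes that lost their call, and Sparc was gained without MyoD replicate 3. No fall that was called turned into a rise in any of the 15 alternatives.

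With MyoD alone the members lay on both sides of MEF. At each of the 3 replicate numbers, 6 genes (Thbs1, Thbs2, Thbs4, Tnc, Postn and Sparc) were lower with MyoD than in MEF, beside 19.4% of all genes, and Mgp was higher, beside 17.4%. Paired in this way Thbs2 lay 2.89-fold to 4.05-fold lower, Postn 2.72-fold to 4.81-fold lower and Sparc 1.43-fold to 1.77-fold lower. Fn1 lay 2.06-fold and 1.60-fold lower at numbers 1 and 2 but 2.13-fold higher at number 3. An unadjusted p under 0.05 was reached by 2 of the 10 genes (Thbs2 and Thbs4) and by 732 of all genes, and DESeq2 called none of the 10 and 171 of all genes. With the replicate number as a block edgeR called 13 genes, none of them among the 10, and without the third libraries of MEF and MyoD it called 199, again none among the 10.

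The order of the 3 replicate numbers was the same in MEF and MyoD for 6 of the 10 genes (Thbs1, Thbs2, Thbs4, Sparc, Spp1 and Fn1), beside 42.6% of all genes. Between MEF and F/R/C the order was shared by Spp1 only, beside 19.3%, and between MyoD and F/R/C by Thbs3 and Spp1, beside 18.8%. Thus Thbs1 at 16505 and 15690 CPM and Fn1 at 6307 and 13437 CPM were highest in the third library of MEF and of MyoD, and both were lowest in the third library of F/R/C. For Fn1 in MEF, replicate 1 was nearly equal at 6277 CPM, so its order there rests on a small difference.

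Alternative exons of fibronectin and periostin were read from the TPM of annotated protein-coding transcripts, a measure that the choice of the genes did not use. The EIIIA and EIIIB exons of Fn1 each encode an extra type III repeat that marks the cellular form of fibronectin, as opposed to the plasma form. The exon of Postn is a cassette in the variable C-terminal part. They are printed, 5′ to 3′ on the strand of the gene, since the shares below turn on them. They come from the GENCODE M21 transcripts of GRCm38.

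Fn1 EIIIA, chr1:71603660-71603929, minus strand: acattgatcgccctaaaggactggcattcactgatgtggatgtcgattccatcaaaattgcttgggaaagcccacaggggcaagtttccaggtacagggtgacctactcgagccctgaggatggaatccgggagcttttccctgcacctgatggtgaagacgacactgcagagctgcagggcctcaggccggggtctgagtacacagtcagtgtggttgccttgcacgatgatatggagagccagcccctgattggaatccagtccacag
Fn1 EIIIB, chr1:71613763-71614035, minus strand: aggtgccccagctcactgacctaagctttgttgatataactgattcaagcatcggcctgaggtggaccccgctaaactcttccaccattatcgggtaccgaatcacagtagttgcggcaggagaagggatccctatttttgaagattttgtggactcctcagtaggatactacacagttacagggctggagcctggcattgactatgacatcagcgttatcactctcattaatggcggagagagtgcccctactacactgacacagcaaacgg
Postn 81-base exon, chr3:54380412-54380492, plus strand: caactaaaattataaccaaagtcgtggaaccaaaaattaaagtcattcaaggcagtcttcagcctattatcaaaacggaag

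Transcripts with the 270-base EIIIA exon made up 34.6%, 36.8% and 31.0% of the Fn1 transcripts with or without it in MEF, 32.7%, 45.1% and 32.4% with MyoD and 61.8%, 59.3% and 92.6% with F/R/C. The F/R/C libraries lay above all 6 others, at a mean of 71.3% ± 18.6 (SD, n = 3) beside 34.1% ± 2.93 in MEF and 36.7% ± 7.26 with MyoD. The highest value, in F/R/C replicate 3, rests on a small part of the gene's TPM. Protein-coding transcripts that hold or skip the exon had only 29.7% of Fn1 TPM there, against 71.9% to 95.8% in the other libraries. Fn1-202, a retained-intron transcript whose span covers the exon, was left out of these shares. It held 41.2% of Fn1 TPM in that library, against 0.349% to 5.32% in the others. Without F/R/C replicate 3 the F/R/C mean was 60.6%. In TPM, transcripts with the exon stood at 117 to 960.0 in the MEF and MyoD libraries and at 48.9 to 118 with F/R/C, and those without it at 142 to 2005 and at 3.89 to 72.7. No test was made, since the smallest two-sided p of an exact permutation of 3 against 3 libraries is 0.1.

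EIIIB, of 273 bases, was in 25.4%, 29.6% and 19.3% of the Fn1 transcripts in MEF, 27.2%, 38.9% and 17.5% with MyoD and 40.1%, 31.0% and 31.2% with F/R/C, so that F/R/C overlapped MyoD but not MEF. The value of F/R/C replicate 3 rests on the same 29.7% of Fn1 TPM. The Postn exon was in 58.0%, 53.4% and 27.0% of Postn transcripts in MEF, 41.5%, 35.8% and 19.0% with MyoD and 7.23%, 20.9% and 23.5% with F/R/C. F/R/C lay below every MEF library and overlapped MyoD. At each replicate number the Postn share was lower with MyoD than in MEF. The 84-base exon of Postn was in at most 5.11% of transcripts in the F/R/C libraries in 31.3%, 30.3% and 8.01% in MEF and in 23.3%, 23.6% and 0.0365% with MyoD, so that MyoD replicate 3 lay among the F/R/C libraries. The 273-base exon of Tnc stayed between 1.60% and 5.30% in MEF and MyoD and was at 11.8%, 3.88% and 8.40% with F/R/C, the last in the library whose division between Tnc-201 and Tnc-204 differed from the rest. These shares come from kallisto's division of reads among overlapping transcripts, which is not a count of reads across the exon's junctions.

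**Figure D4:**
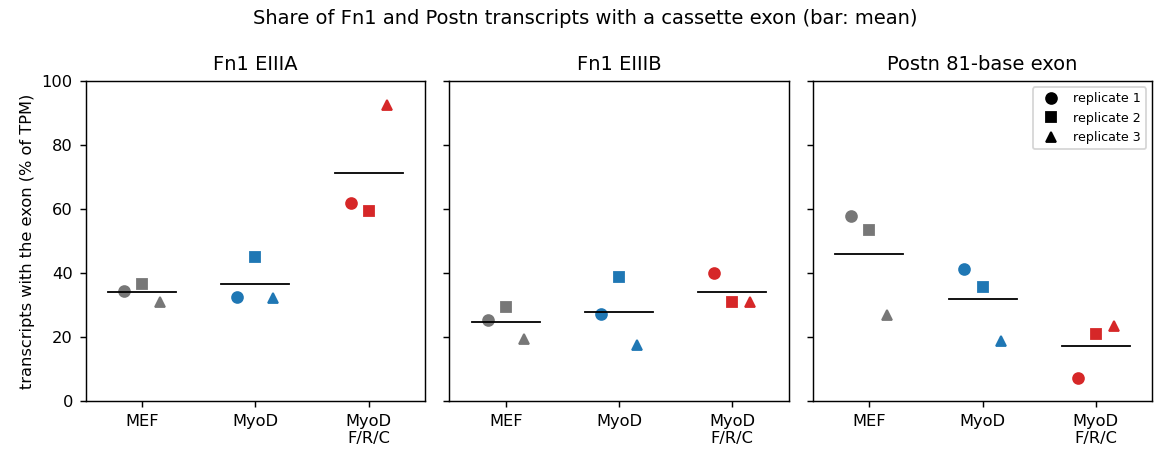
Share (percent of TPM) of Fn1 or Postn transcripts that hold a cassette exon, 1 point per library with the symbol giving the replicate number and a bar for the mean. For EIIIA the F/R/C libraries stand at 59.3% to 92.6% and the others at 31.0% to 45.1%, while for the Postn exon the F/R/C libraries stand at 7.23% to 23.5%.

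Some other members were carried mostly by 1 transcript. Thbs1-201, Thbs2-201 and Mgp-201, each the only protein-coding transcript of its gene, held 95.9% to 99.9%, 99.1% to 99.8% and 99.1% to 99.9% of the gene's TPM over the libraries. Spp1-201 held 89.4% to 95.0%. Thbs3-201 held 53.1% to 95.3% of Thbs3 TPM, the rest being shared by transcripts that include retained introns. Tnc was split between Tnc-201 (30.5% to 74.8%) and Tnc-204 (16.8% to 57.7%), and Sparc-202 held 47.1% to 81.1% of Sparc TPM. F/R/C replicate 3 had the highest share of Tnc-201 and of Sparc-202 and the lowest of Tnc-204.

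Among the 10 genes, the profiles over the 9 libraries were closest between Thbs2 and Sparc, whose centred log2 CPM values differed by a root mean square of 0.62. Thbs1 and Fn1 followed at 0.73, then Thbs3 and Mgp at 0.81. Among 10203 other genes of at least 3 average log2 CPM, the nearest to Thbs2 were Col5a2 (0.39), Col1a2 (0.46) and Fbn1 (0.47), which encode fibrillar collagen chains and fibrillin-1. The nearest to Thbs3 were Pcdhac2 (0.23), Nfix (0.26) and Pcdh9 (0.31), to Mgp Rab32 (0.38), Tbc1d2 (0.41) and Ly6a (0.42), and to Fn1 Hand2 (0.51), Cpe (0.53) and Tmem86a (0.57). For Sparc they were Gmppb, Cd276 and Acot11 (0.23 to 0.25), for Tnc Pik3c2a, Phldb2 and Frs2 (0.34 to 0.38) and for Spp1 Pcdhgc5, Fmnl3 and Cd80 (0.51 to 0.64). For the other members the closest were Flt4 for Thbs1 (0.62), Pappa2 for Postn (0.65) and Car9 for Thbs4 (0.91). These are descriptions over 9 libraries that share their group differences.

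Genes around the members were taken from 4 lists of 69 genes, of which 67 were tested. The lists were drawn up by known role but with earlier results of these data known, so their counts are a description. With F/R/C against MEF, 29 fell and 10 rose, beside 18.1% and 19.5% of all genes, and against MyoD 22 fell and 7 rose, beside 16.1% and 17.8%. None was called between MyoD and MEF, where 6 had an unadjusted p under 0.05 and DESeq2 called 2. The counts were 25 and 17 called genes, against MEF and MyoD respectively, without F/R/C replicate 3.

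Of 20 other matricellular genes tested, 10 fell and 1 rose against MEF (median log2 fold change -2.18), and 6 fell and 1 rose against MyoD. Fstl1, a follistatin-like relative of SPARC, stood at 1874 to 2818 CPM in MEF and at 257 to 480 CPM with F/R/C, a fall of 2.50 ± 0.41 on the log2 scale (edgeR, adjusted p = 0.00231). The connective tissue growth factor Ccn2 fell by 3.84 ± 0.71 (edgeR, adjusted p = 0.00387) and Ccn1 by 1.85 ± 0.39 (edgeR, adjusted p = 0.0067); against MyoD, Ccn2 fell by 3.04 ± 0.68 (edgeR, adjusted p = 0.0107), and Ccn1 had a log2 fold change of -0.99 ± 0.38 (edgeR, adjusted p = 0.0736; 0.0397 with the block). Comp, the fifth thrombospondin, was named outside the rule after its values were seen; it stood at 207, 76.0 and 15.7 CPM in MEF and at 2.05, 1.09 and 1.34 CPM with F/R/C, a fall of 6.05 ± 1.35 (edgeR, adjusted p = 0.0087, from 1.97e-08 to 0.0419 over the alternatives). Npnt, the integrin ligand nephronectin, rose from 17.1, 100.1 and 252 CPM in MEF to 828, 907 and 849 CPM (2.81 ± 0.85; edgeR, adjusted p = 0.0308). That call was lost without MEF replicate 2 or without any 1 F/R/C library, with an adjusted p of up to 0.098. Against MyoD the log2 fold change of Npnt was 2.72 ± 0.85 (edgeR, adjusted p = 0.0371), a call lost in 5 of the 15 alternatives.

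Among 20 receptors tested, 7 fell and 5 rose against MEF (median -0.99), and 6 fell and 3 rose against MyoD. Integrin chains that bind these proteins differed in direction. Itgb5 stood at 459 to 670 CPM in MEF and at 116 to 149 CPM with F/R/C (-2.06 ± 0.25; edgeR, adjusted p = 0.000686), and Itgav at 194 to 404 and 59.6 to 94.6 CPM (-1.95 ± 0.39; edgeR, adjusted p = 0.0052). Itgb6, Itga4 and Itga9, integrin chains named outside the rule after their values were seen, rose against MEF. Itgb6 was at 0, 0 and 0.599 CPM in MEF and at 36.6, 35.6 and 32.5 CPM with F/R/C (edgeR, adjusted p = 0.00187), Itga4 at 3.95 to 19.5 and at 325 to 643 CPM (edgeR, adjusted p = 0.00701), and Itga9 at 19.5, 17.3 and 21.3 and at 58.5, 35.6 and 55.3 CPM (edgeR, adjusted p = 0.0039). Itgb1, Itgb3 and Itga5 were not called. Lrp1, the endocytic receptor that clears thrombospondins, fell by 1.91 ± 0.42 (edgeR, adjusted p = 0.00863). Cd36, a thrombospondin receptor and fatty acid transporter of muscle, rose: its levels were 11.5, 8.25 and 6.09 CPM in MEF, 19.4, 18.0 and 24.3 CPM with MyoD and 111, 107 and 122 CPM with F/R/C. The groups did not overlap, and its rise was 3.72 ± 0.27 against MEF (edgeR, adjusted p = 0.000227) and 2.46 ± 0.25 against MyoD (edgeR, adjusted p = 0.000647).

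Of 14 modifying enzymes and their regulators, 7 fell and 2 rose against MEF (median -1.20), and 5 fell and 1 rose against MyoD. Bmp1, a protease that processes matrix proteins, fell by 1.74 ± 0.26 (edgeR, adjusted p = 0.00151), and the membrane protease Mmp14 by 1.46 ± 0.27 (edgeR, adjusted p = 0.00366). Vkorc1, which regenerates the vitamin K needed to modify Mgp, stood at 155, 139 and 74.6 CPM in MEF and at 20.9, 29.5 and 32.0 CPM with F/R/C and fell by 2.16 ± 0.37 (edgeR, adjusted p = 0.003). Tgm2, a transglutaminase that crosslinks fibronectin and osteopontin, rose by 1.75 ± 0.46 (edgeR, adjusted p = 0.0179). Its call was lost in 4 of 15 alternatives (without MEF replicate 1 or 2, without F/R/C replicate 2, and with counts scaled from TPM), at an adjusted p of up to 0.0712, and held in all against MyoD (2.24 ± 0.47; edgeR, adjusted p = 0.00843).

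Of 13 genes of latent TGF-beta and its receptors, 5 fell and 2 rose against MEF (median -0.95), and the same numbers against MyoD. All 4 genes of the latent TGF-beta binding protein family, matrix proteins most of which hold the latent cytokine, fell against both groups. Ltbp2 encodes the member that is not known to bind latent TGF-beta. Ltbp2 stood at 875, 1281 and 667 CPM in MEF and at 36.7, 62.4 and 26.5 CPM with F/R/C (-4.49 ± 0.43; edgeR, adjusted p = 0.00036), Ltbp3 fell by 2.54 ± 0.25 (edgeR, adjusted p = 0.0004) and Ltbp1 by 2.94 ± 0.30 (edgeR, adjusted p = 0.000422). The receptor gene Tgfbr1 rose from 36.8, 35.5 and 57.4 CPM to 123, 149.9 and 107 CPM (1.55 ± 0.28; edgeR, adjusted p = 0.00374). Against MyoD each of these 4 genes changed in the same direction as against MEF, in a comparison that shares the F/R/C libraries.

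**Figure D5:**
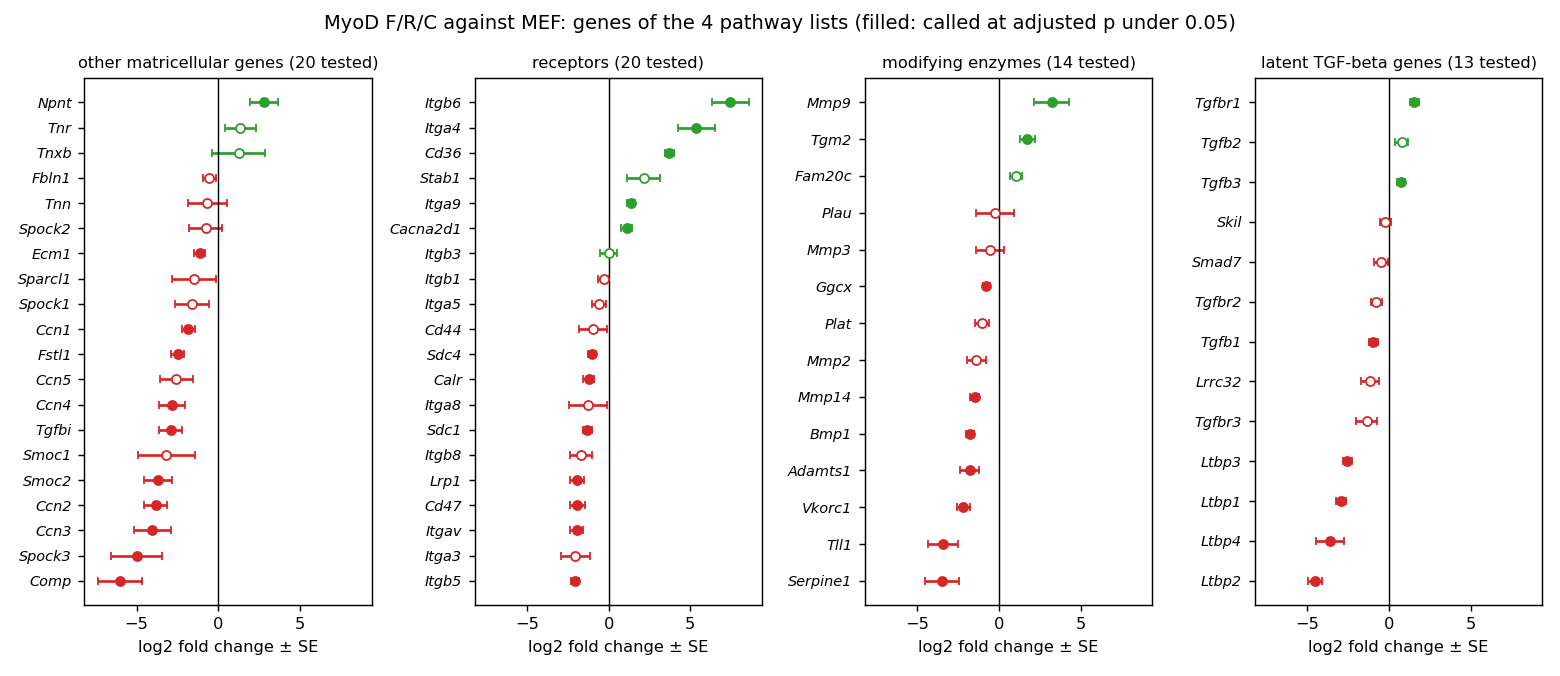
Log2 fold change ± SE (horizontal axis) of F/R/C against MEF for the 67 tested genes of the 4 lists, filled where the gene was called. Of the filled points, 29 lie below 0, among them the 4 latent TGF-beta binding proteins, and 10 above, among them Cd36, Npnt, Tgm2 and Tgfbr1.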

How the data were processed

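Polyadenylated RNA from 9 libraries of Dmdmdx fibroblasts was sequenced, per the labels' protocols with a TruSeq Stranded mRNA preparation after RNeasy extraction and DNase treatment. Per the submitters' processing notes, bcl2fastq 2.19, Trimmomatic 0.36, kallisto 0.44 and edgeR 3.28 were used with GRCm38.p6. Neither kallisto's settings nor its transcript annotation or strand option is given in the sources used here. The authors deposited, per the file headers, an estimated count and a TPM value for each of 121843 Ensembl transcripts in each library; 121104 matched GENCODE M21 and were summed to 35675 genes. The 739 unmatched transcripts held 0.200% to 0.494% of the counts. Gene totals were 21066815 to 24175719 per library, and a floor of 3 counts is 0.113 to 0.144 CPM, which covers counting error only.

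Summed estimated counts were rounded, filtered (filterByExpr, minimum count 10, minimum total 15), scaled by TMM and fitted over all 9 libraries with edgeR 4.0.16 in R 4.3.3 (quasi-likelihood F test, Benjamini-Hochberg, adjusted p under 0.05). The fit was tried on simulated counts with known fold changes, the same dispersion for all genes and no effect of replicate number. That trial does not show how the calls behave at the spread within groups seen here. Each SE was computed as the size of the fold change (log2) over the root of its F statistic. Alternatives were DESeq2 1.42.0, other scalings and filters, only the groups compared, counts scaled from TPM, a replicate block and leaving out each library. Leaving out the third libraries of MEF and MyoD together, and the exon share alternatives, were added after seeing the data. Tables and figures used Python 3.11.15, pandas 2.3.3 and matplotlib 3.10.9.

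The replicate numbers come from the sample titles. Deviations from group means of same-numbered libraries correlated at 0.655, 0.632 and 0.729 between MEF and MyoD and at 0.142, 0.151 and 0.101 between MEF and F/R/C, all above the 0.1 taken as a sign of pairing. Between MyoD and F/R/C they were 0.0837, 0.119 and 0.164, not all above it. The calls reported come from the fit without the block, and the block was an alternative; it removes the Fn1 call against MEF. Values set side by side by replicate number describe libraries and assume no pairing.

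The members and lists were chosen with earlier results of these data known. Named genes are the 10 members, up to 4 genes per pathway list (the 3 of smallest adjusted p against MEF in the direction of most of the list and 1 in the other), and the 3 genes nearest to a member in centred log2 CPM profile. Exon shares are the TPM of protein-coding transcripts that hold an exon over those that hold or skip it. Upstream sequences are from RefSeq (GRCm38.p6), which matched 7 of the 10 genes; Thbs1, Fn1 and Mgp had no entry in that table.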

Additional observations from a re-analysis of the deposited data

How the results depend on the processing

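Over the alternatives, none of the 30 member fold changes that was called changed sign, and 6 of the 30, none of them called, did so under some setting. Of the 10 members, 7 were called with F/R/C against MEF and 3 to 7 when each library was left out in turn, 9 with DESeq2 (adding Thbs1 and Postn) and 8 with only the 2 groups (adding Thbs1). Against MyoD 4 were called, 7 with DESeq2 and 2 to 4 when each library was left out. Of the pathway genes, 39 were called against MEF and 25 to 37 with a library left out, and 29 against MyoD and 17 to 29 with a library left out; F/R/C replicate 3 gave the lowest number in each. Between MyoD and MEF, 0 genes were called, but 171 with DESeq2, 11 with no filter beyond 1 count, 13 with the replicate block, 0 to 161 with a library left out (161 without MEF replicate 3) and 199 without the third libraries of MEF and MyoD. The pathway genes called there were 0, with 2 by DESeq2, 0 to 1 with a library left out and 1 without the third libraries. The cause of these changes was not tested.

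With the replicate number as a block, the counts of called genes were 6875 against MEF (5916 without the block) and 6334 against MyoD (5327), those of members 6 and 5, and those of pathway genes 44 and 37. Fn1 lost both calls under the block, and against MyoD Sparc (lower) and Thbs4 (higher) gained one. It changed no other call of a member, and among the pathway genes named it changed only that of Ccn1 against MyoD. Thbs4 is limited by depth, at 8 to 24 counts in 3 libraries of MEF and MyoD.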
